A study of Mus musculus with 24 samples.

Results

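Diethylnitrosamine (DEN) is a liver carcinogen, and the RNA comparison described here sets livers of wild-type mice that had received it (DEN_WT) against livers of untreated wild-type mice (WT). A gene was a member when its value reached 10 in at least 3 of the 12 RNA libraries of the series, whatever its level in either wild-type group. That left 16471 of the 37583 genes in the deposited table, and 7930 of the genes set aside read 0 in every library. The comparison used 6 libraries, 3 per group, of the 24 samples of the series.

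Both groups were C57BL6/CBA wild-type mice killed at 8.5 months of age, and each library is labelled as a mouse of its own. DEN_WT mice had been given 25 mg/kg DEN once by intraperitoneal injection, and WT mice had been left untreated. The labels do not give a vehicle injection for WT, the age at injection, or whether tumour nodules or the tissue between them were taken. The other 6 RNA libraries, from DEN-treated and untreated mice with a gene trap in Smyd3 (DEN_KO and KO), entered the same fit and are quoted only where a wild-type result turns on them.

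DEN is converted inside hepatocytes by cytochrome P450 enzymes to a species that alkylates DNA. A single dose leaves mutated hepatocytes that grow over months into foci, adenomas and hepatocellular carcinoma. The liver exports most plasma proteins, breaks down amino acids, and takes up and modifies foreign compounds, and tumour cells of this origin often lose some of these functions while dividing.

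Values are normalized counts, which the authors had scaled between libraries and rounded to whole numbers. They are not corrected for gene length, so levels are compared between livers and not between genes. Sums of the values were 22320634, 23663707 and 23389245 in DEN_WT livers, against 24556395, 28973396 and 27121604 in WT livers. The 10 highest genes took 22.4%, 33.4% and 26.9% of them in DEN_WT livers and 17.3% to 18.9% in WT livers, and DEN_WT 2 lay farthest from WT on the first principal component. Smyd3 itself read 57, 71 and 74 in DEN_WT livers, against 79, 89 and 59 in WT livers, with overlapping groups (log2 fold change -0.15 ± 0.41 SE, adjusted p = 0.808). The Y-linked genes Ddx3y, Eif2s3y, Kdm5d and Uty read at least 209 in each of the 6 libraries and Xist at most 16. Of the 13 hepatocyte markers, 2 were higher and 3 lower in DEN_WT, with 1 lower after quantile normalization. The share of higher markers was near the 16.1% among all tested genes. Of the 5 tested red cell markers 4 did not pass and 1 was lower. Of the 3 tested pancreatic markers 1 was higher (Cela2a, at most 9) and 1 lower (Cela1).

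In DEN_WT livers 4882 genes differed from WT, 29.6% of those tested (limma, adjusted p under 0.05). There were 2659 higher genes (16.1%) and 2223 lower genes (13.5%). Rises were larger than falls: 897 higher genes and 257 lower genes differed at least 4-fold, and 191 higher and 12 lower genes at least 16-fold. The 3 libraries of each group did not overlap in 2596 of the 2659 higher genes and in 2120 of the 2223 lower genes, against 43.3% of all tested genes. The balance of directions depends on the scaling, because 74.2% of the calls were higher when all libraries were set to the same total and 48.0% after quantile normalization, against 54.5% as deposited. The median over all tested genes was -0.02 as deposited, 0.19 at equal totals and -0.11 after quantile normalization, all on the log2 scale. Of 13988 protein-coding genes 2551 were higher and 1872 lower, whereas of 1692 pseudogenes 46 were higher and 234 lower.

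**Figure D1:**
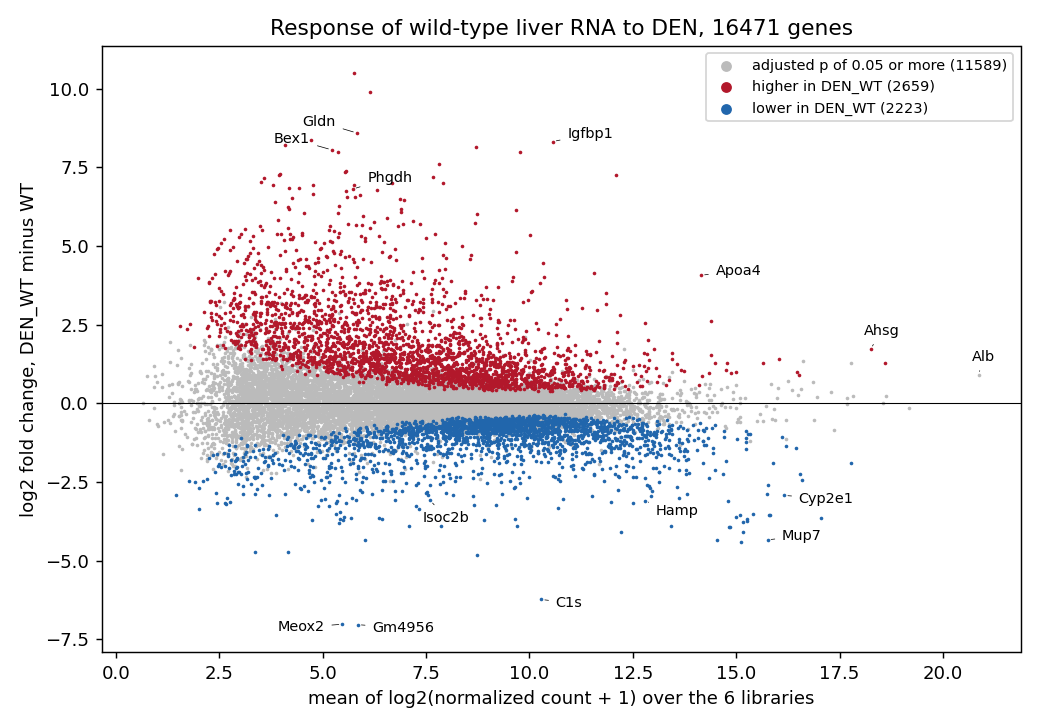
Log2 fold change of DEN_WT minus WT (vertical) against the mean log2(normalized count + 1) of the 6 libraries (horizontal) for 16471 genes. Red points are the 2659 higher genes, blue points the 2223 lower genes, grey points the rest, and the points reach farther up than down.

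The strongest rises were in genes that WT livers barely held. By a rule chosen after the values were seen, 17 genes read at most 3 in every WT library and at least 50 in every DEN_WT library. Gldn, which encodes gliomedin, an organizer of nodes of Ranvier in peripheral nerve, read 608, 1821 and 1252 in DEN_WT livers, against 3, 2 and 1 in WT livers (log2 fold change 8.60 ± 0.75 SE, adjusted p = 5.31e-06). Bex1 and Bex2, X-linked genes of small signalling adaptors best known from the brain, moved together. Bex1 read 517, 838 and 522 in DEN_WT livers, against 0, 3 and 2 in WT livers (log2 fold change 8.06 ± 0.72 SE, adjusted p = 7.13e-06). Bex2 read 155, 295 and 163 in DEN_WT livers, against 0, 1 and 0 in WT livers (log2 fold change 7.28 ± 0.59 SE, adjusted p = 3.13e-06). Tceal5 lies near them on the X chromosome and was listed at 0 in all 3 WT livers, while it read 105, 185 and 145 in DEN_WT livers (adjusted p = 1.43e-05). Cxcl17, a chemokine of mucosal surfaces, was likewise listed at 0 in every WT liver and read 75, 147 and 203 in DEN_WT livers (adjusted p = 7.69e-06). The other 12 were Gm10567, 5730559C18Rik, Akr1c18, Cdhr2, Miox, Tff3, Cacna1b, Ypel4, Vmn2r3, Cdh17, Sult2a2 and Gm7092.

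The 20 largest rises were taken among higher genes with a DEN_WT mean of at least 100 and no overlap of the groups. They also held Tff3, Akr1c18, Vmn2r3, Igfbp1, Gm7092, H19, Lcn2, Gm10567, Afp, Alox5, Pnpla5, Cyp2a4, Ly6k, Tspan8 and Igdcc4. The 10 lowest adjusted p-values belonged to Scd2, Mtmr11, Ifi27l2b, Gpc3, Scn8a, Isoc2b, Gm4956, Adcy1, Akr1c18 and Npdc1, 8 higher genes and 2 lower ones. Adcy1, a calcium-stimulated adenylyl cyclase of neurons, read 901, 1516 and 983 in DEN_WT livers, against 10, 13 and 11 in WT livers (log2 fold change 6.49 ± 0.38 SE, adjusted p = 3.16e-07). Scn8a, a voltage-gated sodium channel, read 679, 1219 and 1231 in DEN_WT livers, against 17, 13 and 10 in WT livers (log2 fold change 6.16 ± 0.33 SE, adjusted p = 2.19e-07). The phosphatase-like gene Mtmr11 read 822, 1240 and 929 in DEN_WT livers, against 15, 12 and 14 in WT livers (log2 fold change 6.07 ± 0.32 SE, adjusted p = 2.19e-07). Every DEN_WT liver lay far above every WT liver for each of these genes. Ifi27l2b, an interferon-inducible gene, varied little among the treated mice, with 3001, 3099 and 3004 in DEN_WT livers, against 61, 65 and 43 in WT livers (log2 fold change 5.75 ± 0.31 SE, adjusted p = 2.19e-07). Alox5, the 5-lipoxygenase that starts leukotriene synthesis, read 355, 982 and 647 in DEN_WT livers, against 3, 5 and 1 in WT livers (log2 fold change 7.39 ± 0.74 SE, adjusted p = 1.66e-05). Npdc1, a neural differentiation gene, read 1273, 1253 and 1035 in DEN_WT livers, against 106, 82 and 125 in WT livers (log2 fold change 3.51 ± 0.21 SE, adjusted p = 4.77e-07). Isoc2b, one of the lower genes, was nearly equal in the treated livers, with 66, 67 and 64 in DEN_WT livers, against 585, 511 and 603 in WT livers (log2 fold change -3.09 ± 0.17 SE, adjusted p = 2.56e-07).

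Several genes that make non-essential amino acids were higher in DEN_WT livers, while the transcription factor gene Atf4 was not. When amino acids are short or the endoplasmic reticulum is stressed, phosphorylation of eIF2 raises translation of ATF4, which then drives synthesis enzymes, transporters and tRNA synthetases. Of the 28 tested genes of this response 14 were higher and 2 lower, with a median log2 fold change of 1.03, beside -0.02 over all tested genes. Phgdh, the first enzyme of serine synthesis from glucose, read 186, 1118 and 847 in DEN_WT livers, against 4, 4 and 4 in WT livers (log2 fold change 6.81 ± 0.61 SE, adjusted p = 7.15e-06). Psat1, the next enzyme, read 355, 1247 and 865 in DEN_WT livers, against 6, 14 and 17 in WT livers (log2 fold change 5.88 ± 0.58 SE, adjusted p = 1.47e-05). DEN_WT 1 was lowest for both, and still far above every WT liver. The last enzyme, Psph, was readily measured in WT livers and rose less, with 351, 632 and 593 in DEN_WT livers, against 256, 251 and 287 in WT livers (log2 fold change 0.94 ± 0.24 SE, adjusted p = 0.0086).

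Asns, the asparagine synthetase, read 364, 639 and 530 in DEN_WT livers, against 22, 11 and 26 in WT livers (log2 fold change 4.67 ± 0.65 SE, adjusted p = 0.000178). Aldh18a1, which starts proline synthesis, read 256, 438 and 368 in DEN_WT livers, against 25, 23 and 14 in WT livers (log2 fold change 4.04 ± 0.41 SE, adjusted p = 1.65e-05). The pseudokinase gene Trib3 read 2074, 2589 and 1004 in DEN_WT livers, against 110, 214 and 236 in WT livers (log2 fold change 3.30 ± 0.35 SE, adjusted p = 2.39e-05). None of these sets overlapped with WT. Atf4 read 4620, 7451 and 6252 in DEN_WT livers, against 6072, 6660 and 6770 in WT livers, overlapping (log2 fold change -0.12 ± 0.19 SE, adjusted p = 0.692). Ddit3, which encodes CHOP, read 1099, 1145 and 184 in DEN_WT livers, against 466, 358 and 416 in WT livers (log2 fold change 0.58 ± 0.55 SE, adjusted p = 0.462). It was low only in DEN_WT 3. Without DEN_WT 3 its log2 fold change was 1.45 and passed. Shmt2, the mitochondrial serine hydroxymethyltransferase, went the other way with 3342, 2092 and 3197 in DEN_WT livers, against 4811, 5009 and 5027 in WT livers (log2 fold change -0.81 ± 0.18 SE, adjusted p = 0.0041). None of the 18 tested chaperone and degradation genes of the endoplasmic reticulum was higher and 1 was lower, Herpud1, with 8191, 9899 and 7436 in DEN_WT livers, against 20211, 21969 and 14798 in WT livers (log2 fold change -1.15 ± 0.19 SE, adjusted p = 0.000746). After quantile normalization 1 of them was higher and 0 lower. Hspa5, the chaperone BiP, read 30131, 50415 and 19514 in DEN_WT livers, against 44550, 36111 and 25556 in WT livers (log2 fold change -0.16 ± 0.45 SE, adjusted p = 0.823), and its groups overlapped.

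The promoters of 3 of these genes hold the letters TGATGNAA, the core of the element through which ATF4 and C/EBP proteins act, and they are shown because the genes rose together. RefSeq windows (GRCm38.p6, 250 bases before to 50 after the start, 5′ to 3′) were searched on both strands, and capitals mark the match. Phgdh is given beside them as the largest rise of the list without a match in its window.
Asns, chr6:7693160-7693459, minus strand: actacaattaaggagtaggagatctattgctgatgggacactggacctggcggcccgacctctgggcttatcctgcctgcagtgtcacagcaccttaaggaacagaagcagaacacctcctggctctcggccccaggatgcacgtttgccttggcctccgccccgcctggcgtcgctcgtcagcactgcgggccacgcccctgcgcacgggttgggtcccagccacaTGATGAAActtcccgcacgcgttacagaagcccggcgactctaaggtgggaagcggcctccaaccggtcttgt
Trib3, chr2:152344011-152344310, minus strand: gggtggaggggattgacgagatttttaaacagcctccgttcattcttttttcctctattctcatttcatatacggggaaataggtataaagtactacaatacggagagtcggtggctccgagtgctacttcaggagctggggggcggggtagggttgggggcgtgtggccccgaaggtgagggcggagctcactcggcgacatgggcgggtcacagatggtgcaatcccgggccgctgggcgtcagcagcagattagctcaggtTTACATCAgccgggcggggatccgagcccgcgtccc
Nupr1, chr7:126625421-126625720, minus strand: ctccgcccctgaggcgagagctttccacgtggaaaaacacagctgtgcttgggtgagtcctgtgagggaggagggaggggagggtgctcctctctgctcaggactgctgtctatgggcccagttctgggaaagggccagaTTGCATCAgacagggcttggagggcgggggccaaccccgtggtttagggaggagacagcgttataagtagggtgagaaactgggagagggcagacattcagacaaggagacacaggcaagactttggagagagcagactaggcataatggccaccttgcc
Phgdh, chr3:98339920-98340219, minus strand: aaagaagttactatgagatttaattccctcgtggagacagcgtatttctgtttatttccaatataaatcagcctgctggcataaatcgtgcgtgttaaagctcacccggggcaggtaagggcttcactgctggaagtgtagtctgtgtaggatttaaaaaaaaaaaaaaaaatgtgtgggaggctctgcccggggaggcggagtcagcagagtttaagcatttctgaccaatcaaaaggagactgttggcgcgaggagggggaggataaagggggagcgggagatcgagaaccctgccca
At least 1 window held a match in 9 of the 25 genes of the list whose windows were counted: 3 of 12 higher genes, 0 of 2 lower genes and 6 of 11 genes that did not pass. The list had 28 tested genes. Windows on 1 chromosome were left out before this count, so any list genes there are not covered. Of all 32851 windows in the table, 3.97% held it, a share of windows and not of genes. Nupr1, a small stress-induced chromatin protein, read 241, 167 and 87 in DEN_WT livers, against 8, 15 and 18 in WT livers (log2 fold change 3.45 ± 0.78 SE, adjusted p = 0.00484).

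Of 24 tested amino acid and nucleoside transporters 9 were higher and 1 was lower. Slc7a7, the light chain of a carrier of basic amino acids, read 268, 538 and 471 in DEN_WT livers, against 44, 50 and 31 in WT livers (log2 fold change 3.29 ± 0.31 SE, adjusted p = 9.92e-06). Slc1a4, which carries serine and alanine, read 700, 860 and 827 in DEN_WT livers, against 58, 81 and 86 in WT livers (log2 fold change 3.40 ± 0.50 SE, adjusted p = 0.000288). The lower one was Slc1a2, a glutamate carrier of pericentral hepatocytes, with 1649, 162 and 1019 in DEN_WT livers, against 1779, 2844 and 2569 in WT livers (log2 fold change -1.86 ± 0.59 SE, adjusted p = 0.0307). DEN_WT 2 was far lower than the other livers, and without it the value was -0.86 and still passed. The call was lost at equal totals and without WT 2 (-1.72) or WT 3 (-1.79), on the log2 scale.

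**Figure D2:**
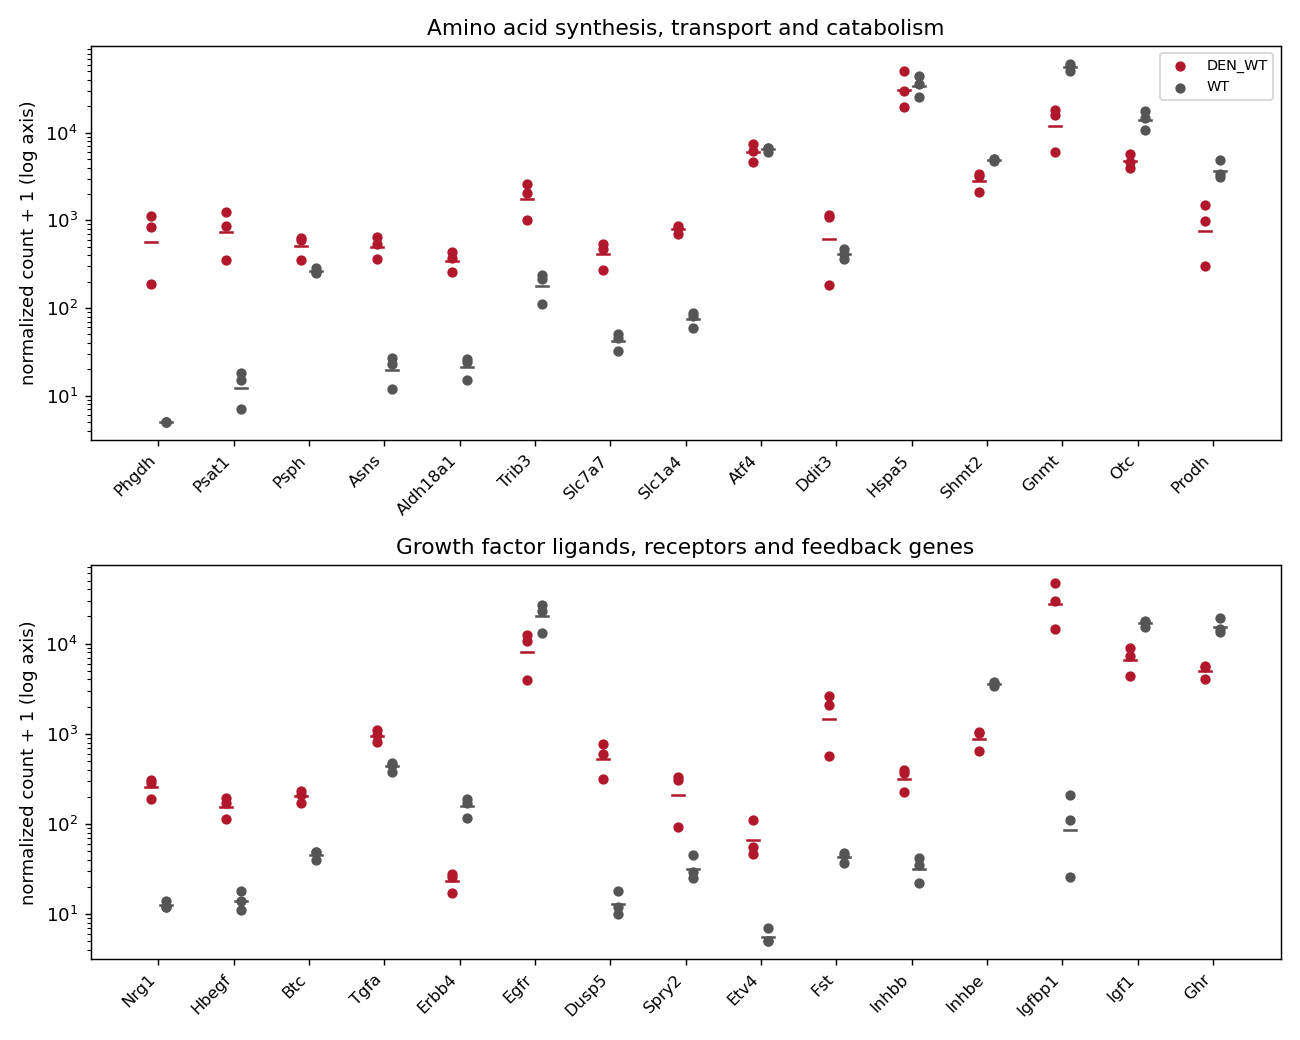
Normalized counts plus 1 (log axis) per library for 15 genes of amino acid metabolism (top) and 15 of growth signalling (bottom), DEN_WT in red and WT in grey, with the mean of the log values as a bar. Red points lie above grey for Phgdh, Asns, Nrg1, Dusp5 and Igfbp1, below for Gnmt, Otc, Erbb4, Igf1 and Ghr, and mix for Atf4 and Hspa5.

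Of 35 tested urea cycle and catabolic genes 24 were lower and 0 higher, with a median log2 fold change of -0.85; 15 were lower at equal totals and 14 after quantile normalization. Gnmt, which spends S-adenosylmethionine on glycine, read 17951, 5996 and 16125 in DEN_WT livers, against 51249, 61128 and 58420 in WT livers (log2 fold change -2.24 ± 0.35 SE, adjusted p = 0.000431). Otc of the urea cycle read 5794, 3973 and 4616 in DEN_WT livers, against 10624, 17652 and 14756 in WT livers (log2 fold change -1.57 ± 0.25 SE, adjusted p = 0.000504). DEN_WT 2 was the lowest liver for both genes, and every DEN_WT value lay below every WT value. Prodh, which opens proline for oxidation, read 1489, 300 and 972 in DEN_WT livers, against 3342, 3105 and 4845 in WT livers (log2 fold change -2.28 ± 0.45 SE, adjusted p = 0.00215), beside the rise of Aldh18a1 on the synthesis side.

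Complex I, the entry point of the respiratory chain, had 26 of 36 tested subunit genes lower and 0 higher, with a median of -0.83, and 17 lower at equal totals. Ndufb8, a complex I subunit, read 841, 816 and 941 in DEN_WT livers, against 2004, 2174 and 1961 in WT livers (log2 fold change -1.24 ± 0.16 SE, adjusted p = 0.000118), and its groups were well apart. Mitochondrial ribosomal proteins had 32 of 75 lower and 1 higher, with a median of -0.45, and 10 lower and 3 higher at equal totals. Cytosolic ribosomal proteins had 3 of 81 lower, 0 higher and a median of -0.09. After quantile normalization 5 were higher, and at equal totals 6 were higher and 0 lower. Without DEN_WT 3 none of them was lower, without WT 3 the number was 1 and without WT 1 it was 5.

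The ErbB ligand genes Nrg1, Hbegf, Btc, Tgfa and Nrg4 were higher in DEN_WT livers, Egf and Ereg did not pass, and no receptor gene was higher. EGF-family ligands bind these tyrosine kinases and feed the MAPK cascade, which induces its own inhibitors. Of 15 tested genes 6 were higher, the sixth being the ligand-releasing protease Adam17, and 1 was lower. Nrg1, a ligand of ErbB3 and ErbB4, read 189, 286 and 304 in DEN_WT livers, against 13, 11 and 11 in WT livers (log2 fold change 4.34 ± 0.48 SE, adjusted p = 3.28e-05). Hbegf read 192, 170 and 114 in DEN_WT livers, against 13, 10 and 17 in WT livers (log2 fold change 3.47 ± 0.39 SE, adjusted p = 3.67e-05). Btc, betacellulin, read 232, 208 and 168 in DEN_WT livers, against 48, 48 and 39 in WT livers (log2 fold change 2.14 ± 0.44 SE, adjusted p = 0.00276). No DEN_WT liver overlapped with WT for these ligands. Tgfa, already measured well in WT livers, read 816, 957 and 1100 in DEN_WT livers, against 476, 455 and 380 in WT livers (log2 fold change 1.13 ± 0.17 SE, adjusted p = 0.000314). Of the receptors, Erbb4 was lower, with 27, 16 and 25 in DEN_WT livers, against 116, 172 and 189 in WT livers (log2 fold change -2.76 ± 0.56 SE, adjusted p = 0.00243). Egfr read 12284, 3989 and 10683 in DEN_WT livers, against 26568, 22916 and 13184 in WT livers, and did not pass although the groups did not overlap (log2 fold change -1.31 ± 0.47 SE, adjusted p = 0.0501), but it passed without DEN_WT 1 (-1.62) or WT 3 (-1.61). Neither Erbb2 nor Erbb3 passed.

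Of 23 tested genes of the MAPK cascade, kinases, GTPases and feedback genes counted together, 10 were higher and 1 lower. The feedback inhibitors and ERK-induced factors Dusp5, Dusp6, Spry1, Spry2, Spred1, Spred2, Etv4 and Etv5 were among the higher ones. Dusp5, a nuclear ERK phosphatase, read 311, 767 and 593 in DEN_WT livers, against 17, 11 and 9 in WT livers (log2 fold change 5.34 ± 0.41 SE, adjusted p = 2.53e-06). Spry2, an inhibitor of receptor signalling, read 91, 334 and 305 in DEN_WT livers, against 44, 24 and 28 in WT livers (log2 fold change 2.73 ± 0.44 SE, adjusted p = 0.000508). Etv4, an ETS factor induced by ERK, read 46, 54 and 110 in DEN_WT livers, against 4, 6 and 4 in WT livers (log2 fold change 3.56 ± 0.59 SE, adjusted p = 0.000648). DEN_WT 1 was the lowest of the treated livers for each. Of the kinases and GTPases, Nras, Braf and Map2k1 did not pass, Mapk3 was higher (0.79) and Map2k2 lower (-0.51). Map2k2 did not pass without DEN_WT 1, DEN_WT 2 or WT 2, at -0.49, -0.48 and -0.47, all on the log2 scale, nor did it pass at equal totals or after quantile normalization.

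Of 30 tested TGF-beta and BMP genes 10 were higher and 6 lower, with 3 lower at equal totals. Fst, follistatin, which binds activins, read 568, 2624 and 2081 in DEN_WT livers, against 36, 47 and 44 in WT livers (log2 fold change 5.08 ± 0.62 SE, adjusted p = 6.9e-05). Inhbb, an activin subunit, read 225, 364 and 392 in DEN_WT livers, against 34, 21 and 41 in WT livers (log2 fold change 3.32 ± 0.45 SE, adjusted p = 0.000165). The liver-enriched subunits went down, and their groups did not overlap. Inhbe read 1039, 640 and 1028 in DEN_WT livers, against 3421, 3614 and 3707 in WT livers (log2 fold change -2.02 ± 0.36 SE, adjusted p = 0.000957). Inhbc read 1593, 1463 and 1941 in DEN_WT livers, against 3749, 3721 and 2754 in WT livers (log2 fold change -1.03 ± 0.17 SE, adjusted p = 0.000613). The receptor gene Tgfbr2 was even in treated livers, with 2259, 2287 and 2326 in DEN_WT livers, against 851, 674 and 567 in WT livers (log2 fold change 1.73 ± 0.22 SE, adjusted p = 0.000104). Id3, a target of BMP signalling, read 790, 783 and 515 in DEN_WT livers, against 6127, 2158 and 2861 in WT livers (log2 fold change -2.30 ± 0.40 SE, adjusted p = 0.000972). WT 1 stood high for Id3, and all DEN_WT values were lower than all WT values.

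Of the 23 tested genes of the IGF and growth hormone axis 6 were higher and 3 lower, with a median log2 fold change of 0.45, and the lower ones were Ghr, Igf1 and Igfals. Among all tested genes 16.1% were higher and 13.5% lower, and the share of lower genes in this list was near the latter. Growth hormone acts through its receptor Ghr to make the liver secrete IGF1 and its partner, the acid-labile subunit Igfals. Ghr read 5499, 4068 and 5618 in DEN_WT livers, against 14518, 19017 and 13345 in WT livers (log2 fold change -1.62 ± 0.22 SE, adjusted p = 0.000152). Igf1 read 8834, 4353 and 7265 in DEN_WT livers, against 17893, 17375 and 15067 in WT livers (log2 fold change -1.36 ± 0.27 SE, adjusted p = 0.00231). Igfals read 2281, 1676 and 2771 in DEN_WT livers, against 5749, 6087 and 3959 in WT livers (log2 fold change -1.24 ± 0.27 SE, adjusted p = 0.00379). All DEN_WT values were below all WT values. Igfbp1, an IGF-binding protein induced by stress and fasting, went up with 14331, 46712 and 29834 in DEN_WT livers, against 25, 111 and 208 in WT livers (log2 fold change 8.32 ± 0.81 SE, adjusted p = 1.34e-05). Igfbp3 read 1193, 651 and 988 in DEN_WT livers, against 226, 292 and 378 in WT livers (log2 fold change 1.64 ± 0.37 SE, adjusted p = 0.00464). Igfbp4 read 48864, 27250 and 31920 in DEN_WT livers, against 34830, 32891 and 37161 in WT livers, and overlapped (adjusted p = 0.999).

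Of 17 tested Notch pathway genes 9 were higher and 1 was lower. Notch3, the receptor of mural cells, read 145, 128 and 134 in DEN_WT livers, against 30, 18 and 30 in WT livers (log2 fold change 2.37 ± 0.42 SE, adjusted p = 0.00107). Nrarp, a target that limits the signal, read 165, 164 and 126 in DEN_WT livers, against 34, 24 and 26 in WT livers (log2 fold change 2.40 ± 0.47 SE, adjusted p = 0.00199). Hes6 was the lower gene, with 1603, 886 and 1700 in DEN_WT livers, against 3266, 2898 and 2508 in WT livers (log2 fold change -1.10 ± 0.29 SE, adjusted p = 0.0123), and it did not pass without DEN_WT 2 (-0.80). Of 22 tested Hippo and YAP genes 7 were higher and 0 lower, and 4 were higher without DEN_WT 2 or without DEN_WT 3. Tead4, a partner of YAP on DNA, read 90, 83 and 84 in DEN_WT livers, against 13, 13 and 2 in WT livers (log2 fold change 3.37 ± 0.53 SE, adjusted p = 0.000449). Of 26 tested Wnt genes 4 were higher and 3 lower (5 lower after quantile normalization). Both shares were near those among all tested genes, 16.1% higher and 13.5% lower. Notum, a secreted Wnt inhibitor made around the central vein, read 330, 170 and 356 in DEN_WT livers, against 796, 671 and 861 in WT livers (log2 fold change -1.50 ± 0.32 SE, adjusted p = 0.00328). Ctnnb1, beta-catenin, read 4742, 5705 and 5265 in DEN_WT livers, against 3739, 3594 and 3180 in WT livers (log2 fold change 0.58 ± 0.14 SE, adjusted p = 0.00625).

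Hnf4a, a master regulator of the hepatocyte, read 19299, 13368 and 15243 in DEN_WT livers, against 20737, 15389 and 22133 in WT livers (log2 fold change -0.28 ± 0.22 SE, adjusted p = 0.355). Cebpa read 13156, 8675 and 9660 in DEN_WT livers, against 11616, 12371 and 12093 in WT livers (log2 fold change -0.22 ± 0.22 SE, adjusted p = 0.496). Neither passed, and both overlapped. Onecut2 read 557, 277 and 609 in DEN_WT livers, against 2141, 2535 and 2223 in WT livers (log2 fold change -2.33 ± 0.25 SE, adjusted p = 2.58e-05). Nr1h4, the bile acid receptor FXR, read 1783, 876 and 1415 in DEN_WT livers, against 2690, 4280 and 3649 in WT livers (log2 fold change -1.42 ± 0.24 SE, adjusted p = 0.000789). Gata6, a factor of early endoderm, was higher with 319, 430 and 459 in DEN_WT livers, against 109, 149 and 121 in WT livers (log2 fold change 1.66 ± 0.22 SE, adjusted p = 0.00013). These 3 sets did not overlap. Of the 25 tested factors 2 were higher and 7 lower, with 4 lower at equal totals.

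Of 24 tested keratin and junction genes 16 were higher and 1 lower, with a median log2 fold change of 1.05. Cdh1, E-cadherin, read 2522, 3440 and 3544 in DEN_WT livers, against 574, 297 and 188 in WT livers (log2 fold change 3.30 ± 0.39 SE, adjusted p = 5.3e-05). Cdh2, N-cadherin, was the lower gene with 1164, 956 and 1191 in DEN_WT livers, against 2449, 1709 and 2034 in WT livers (log2 fold change -0.89 ± 0.21 SE, adjusted p = 0.00538). Krt20, an intestinal keratin, read 210, 93 and 158 in DEN_WT livers, against 2, 2 and 4 in WT livers (log2 fold change 5.37 ± 0.68 SE, adjusted p = 0.000104). The tight junction gene Cldn1 read 2076, 4463 and 4361 in DEN_WT livers, against 809, 757 and 696 in WT livers (log2 fold change 2.19 ± 0.28 SE, adjusted p = 0.000114). Every DEN_WT liver exceeded every WT liver for the 3 rising genes. Of 17 tested biliary and progenitor markers 10 were higher and 1, Onecut1, was lower. Prom1, a progenitor surface protein, read 250, 1019 and 374 in DEN_WT livers, against 12, 18 and 17 in WT livers (log2 fold change 4.80 ± 0.49 SE, adjusted p = 1.83e-05). The duct keratin Krt7 read 34, 11 and 39 in DEN_WT livers, against 14, 18 and 17 in WT livers, overlapping (log2 fold change 0.57 ± 0.44 SE, adjusted p = 0.35), but passed without DEN_WT 2 (1.12). Sox9 and Epcam, which are among the usual duct markers, did not pass. Tetraspanins, membrane proteins that organize receptors, had 10 of 18 higher and 0 lower, Tspan15 among them with 285, 271 and 277 in DEN_WT livers, against 56, 53 and 44 in WT livers (log2 fold change 2.43 ± 0.30 SE, adjusted p = 7.12e-05).

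In whole-liver RNA, more or fewer cells of a type and more or less RNA per cell cannot be told apart, which bears on all markers that follow. Of 21 tested endothelial genes of continuous and sprouting vessels 14 were higher and 0 lower. Esm1, a marker of sprouting tip cells, read 524, 490 and 333 in DEN_WT livers, against 11, 4 and 10 in WT livers (log2 fold change 5.66 ± 0.51 SE, adjusted p = 7.44e-06). Cd34 read 246, 219 and 189 in DEN_WT livers, against 19, 17 and 18 in WT livers (log2 fold change 3.52 ± 0.37 SE, adjusted p = 2.13e-05). Apln, the ligand apelin, read 362, 126 and 67 in DEN_WT livers, against 6, 5 and 4 in WT livers (log2 fold change 4.62 ± 0.58 SE, adjusted p = 9.69e-05). All lay well above WT, with DEN_WT 3 the lowest for each. Vegfa, the main angiogenic ligand, read 5909, 6575 and 6176 in DEN_WT livers, against 9237, 9044 and 6872 in WT livers, and did not pass (log2 fold change -0.42 ± 0.16 SE, adjusted p = 0.068), but passed without WT 3 (-0.56). Markers of sinusoidal endothelium, the fenestrated lining of normal liver, had 4 of 12 higher and 0 lower with a median of 0.04. Lyve1 read 394, 419 and 386 in DEN_WT livers, against 154, 201 and 205 in WT livers (log2 fold change 1.11 ± 0.21 SE, adjusted p = 0.00149). Clec4g read 1171, 901 and 1126 in DEN_WT livers, against 1056, 1200 and 1894 in WT livers, and overlapped (log2 fold change -0.34 ± 0.20 SE, adjusted p = 0.233).

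Of 22 tested collagen genes 13 were higher and 1 was lower, and the basement membrane chain Col4a3 had the largest fold change among them. Col4a3 read 710, 1252 and 783 in DEN_WT livers, against 20, 19 and 11 in WT livers (log2 fold change 5.69 ± 0.44 SE, adjusted p = 2.41e-06) and Col4a4, its partner in one collagen IV trimer, read 181, 277 and 131 in DEN_WT livers, against 23, 18 and 15 in WT livers (log2 fold change 3.28 ± 0.44 SE, adjusted p = 0.000138). The ubiquitous pair rose together as well, and they share a start region. Col4a1 read 3661, 2903 and 2017 in DEN_WT livers, against 606, 328 and 524 in WT livers (log2 fold change 2.56 ± 0.27 SE, adjusted p = 2.61e-05). Col4a2 read 2170, 1762 and 1330 in DEN_WT livers, against 615, 346 and 338 in WT livers (log2 fold change 2.05 ± 0.31 SE, adjusted p = 0.000322). Groups did not overlap for any of the 4 genes. Col1a1, the fibrillar collagen of scar, read 908, 230 and 199 in DEN_WT livers, against 31, 28 and 17 in WT livers (log2 fold change 3.77 ± 0.51 SE, adjusted p = 0.000166). DEN_WT 1 was highest. Col27a1 was the lower gene, with 389, 532 and 591 in DEN_WT livers, against 1217, 1737 and 1857 in WT livers (log2 fold change -1.67 ± 0.24 SE, adjusted p = 0.000211).

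Col4a1 and Col4a2 start back to back on chromosome 8, so their RefSeq windows (GRCm38.p6, 5′ to 3′) overlap, and both are shown because the genes moved together. Capitals mark the 78 bases that the windows share, read from opposite strands.
Col4a1, chr8:11312777-11313076, minus strand: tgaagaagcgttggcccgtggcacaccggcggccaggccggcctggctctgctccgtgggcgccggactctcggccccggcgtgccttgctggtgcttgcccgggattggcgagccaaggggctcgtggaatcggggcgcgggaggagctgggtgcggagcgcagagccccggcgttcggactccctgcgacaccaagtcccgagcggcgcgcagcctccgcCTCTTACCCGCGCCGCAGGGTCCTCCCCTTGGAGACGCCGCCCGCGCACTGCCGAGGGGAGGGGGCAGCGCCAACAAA
Col4a2, chr8:11312555-11312854, plus strand: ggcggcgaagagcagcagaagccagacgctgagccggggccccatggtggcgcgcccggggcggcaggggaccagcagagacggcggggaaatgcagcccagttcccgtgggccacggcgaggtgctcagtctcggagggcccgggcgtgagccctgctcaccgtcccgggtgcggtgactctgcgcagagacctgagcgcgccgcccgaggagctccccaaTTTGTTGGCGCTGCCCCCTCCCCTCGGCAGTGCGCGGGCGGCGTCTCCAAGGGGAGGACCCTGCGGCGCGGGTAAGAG

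The macrophage genes Mmp12, Gpnmb, Trem2 and Cd14 were higher, and the Kupffer cell genes Clec4f, Timd4, Vsig4, Marco and Cd5l did not pass. Of 23 tested genes 11 were higher and 0 lower, and 16 were higher without DEN_WT 2. Mmp12, macrophage elastase, read 374, 366 and 437 in DEN_WT livers, against 11, 4 and 21 in WT livers (log2 fold change 5.16 ± 0.68 SE, adjusted p = 0.000134). Gpnmb, a glycoprotein of lipid-laden macrophages, read 637, 122 and 220 in DEN_WT livers, against 7, 4 and 4 in WT livers (log2 fold change 5.47 ± 0.83 SE, adjusted p = 0.00037), and DEN_WT 1 was highest. The Kupffer cell gene Clec4f read 2797, 802 and 2076 in DEN_WT livers, against 1993, 2200 and 2309 in WT livers (log2 fold change -0.37 ± 0.34 SE, adjusted p = 0.434). Timd4 read 89, 31 and 140 in DEN_WT livers, against 85, 127 and 82 in WT livers (log2 fold change -0.39 ± 0.49 SE, adjusted p = 0.589). Both overlapped with WT and were lowest in DEN_WT 2. Of 16 tested genes of the T and NK cell list 2 were higher, Prf1 and Cd274, beside 16.1% of all tested genes. Cd274 encodes a ligand that is not specific to these cells. Of 8 tested B and plasma cell genes 2 were higher, Igj and Pou2af1, and 0 genes of either list were lower. Leaving out DEN_WT 1, DEN_WT 3 or WT 1 brought each count to 1, and leaving out WT 3 did so for the B and plasma cell genes. Of 6 tested neutrophil markers 1 was higher and 1 lower, the receptor Cxcr2, with 50, 26 and 30 in DEN_WT livers, against 166, 114 and 213 in WT livers (log2 fold change -2.20 ± 0.46 SE, adjusted p = 0.00281). The higher one was Ltf, lactoferrin, which was not called without DEN_WT 1, WT 2 or WT 3. Both neutrophil counts were near the shares among all tested genes, 16.1% higher and 13.5% lower.
Of 20 tested stellate cell and fibroblast markers 7 were higher and 3 lower, and 1 was lower at equal totals or without DEN_WT 2. Here too the share of lower genes was near the 13.5% among all tested genes. Acta2, the smooth muscle actin of activated stellate cells, read 465, 692 and 326 in DEN_WT livers, against 26, 112 and 79 in WT livers (log2 fold change 2.92 ± 0.50 SE, adjusted p = 0.000851). Hand2, a transcription factor of quiescent stellate cells, read 102, 35 and 55 in DEN_WT livers, against 108, 222 and 212 in WT livers (log2 fold change -1.55 ± 0.38 SE, adjusted p = 0.00725).

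Albumin took 9.32%, 14.3% and 10.8% of all values in DEN_WT livers, against 6.31%, 4.41% and 5.09% in WT livers, and major urinary protein genes took 2.82%, 0.505% and 2.16% in DEN_WT livers, against 7.95%, 17.0% and 12.0% in WT livers. Such shares are not independent of each other. The 10 highest values in DEN_WT were those of Alb, Apoa1, Ahsg, Serpina1a to Serpina1e, Sepp1 and Apoe, and in WT those of Alb, Apoa1, Serpina1a, Serpina1b, Serpina1c, Serpina3k, Mup7, Mup-ps22, Gm10925 and Car3, by mean and without correction for gene length. Alb did not pass in limma (0.90 ± 0.80 SE, adjusted p = 0.426), though its 3 DEN_WT values were all above WT. That SE draws on other genes of similar level and is not the spread of Alb alone. Alb's log2 values spanned 0.70 among DEN_WT livers and 0.28 among WT livers. Apoa4, an apolipoprotein of intestine and fasting liver, read 76936, 52253 and 103798 in DEN_WT livers, against 4517, 3390 and 5702 in WT livers (log2 fold change 4.07 ± 0.39 SE, adjusted p = 1.24e-05). Apoa5, which promotes clearance of triglyceride, was lower with 30111, 16534 and 26435 in DEN_WT livers, against 61589, 61564 and 68936 in WT livers (log2 fold change -1.44 ± 0.27 SE, adjusted p = 0.00167). DEN_WT and WT ranges were far apart for both. Lpl, the lipoprotein lipase of fat and muscle, read 3976, 6396 and 5691 in DEN_WT livers, against 490, 367 and 182 in WT livers (log2 fold change 4.03 ± 0.40 SE, adjusted p = 1.4e-05). Lipc, the hepatic lipase, read 2333, 1109 and 1841 in DEN_WT livers, against 6668, 6774 and 8255 in WT livers (log2 fold change -2.10 ± 0.24 SE, adjusted p = 4.54e-05). Of 29 tested genes of lipoprotein handling 8 were higher and 6 lower.

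Of 30 tested coagulation and fibrinolysis genes 9 were higher and 2 lower. After quantile normalization 15 were higher and 0 lower, at equal totals 0 were lower, and without DEN_WT 2 the lower count was 1. Kng1, kininogen, read 86328, 150387 and 103875 in DEN_WT livers, against 35895, 43011 and 45891 in WT livers (log2 fold change 1.42 ± 0.26 SE, adjusted p = 0.00132). All DEN_WT livers exceeded all WT livers. Of 28 tested complement genes 1 was higher and 8 were lower, and the higher count was 6 after quantile normalization, 3 at equal totals and 4 without DEN_WT 2. C8g, a part of the lytic complex, read 4915, 5375 and 6123 in DEN_WT livers, against 11023, 10294 and 11754 in WT livers (log2 fold change -1.01 ± 0.17 SE, adjusted p = 0.000789). Cfi, the inhibitor factor I, read 18979, 19308 and 20316 in DEN_WT livers, against 12065, 8134 and 8938 in WT livers (log2 fold change 1.03 ± 0.21 SE, adjusted p = 0.00244). Both sets were separate. Clade A serpins had 2 of 23 higher and 11 lower, with 6 lower without DEN_WT 2, without DEN_WT 3 or without WT 3, and the higher count was 1 without DEN_WT 2 and 4 after quantile normalization. Serpina3k read 168435, 81519 and 113796 in DEN_WT livers, against 365265, 463942 and 476954 in WT livers (log2 fold change -1.90 ± 0.43 SE, adjusted p = 0.00473). Serpina7, the thyroxine-binding globulin, read 8422, 7424 and 4539 in DEN_WT livers, against 660, 2727 and 2519 in WT livers (log2 fold change 1.99 ± 0.52 SE, adjusted p = 0.0107). Serpina1 and Serpina3 genes, like the urinary protein genes, are near-identical copies among which reads may have been split.

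Of 23 tested iron genes 4 were higher, a share near that among all tested genes, and 7 were lower. The counts were 7 higher and 5 lower after quantile normalization, and 6 higher and 4 lower at equal totals. Trf, transferrin, read 46790, 57504 and 55611 in DEN_WT livers, against 9621, 7971 and 8266 in WT livers (log2 fold change 2.63 ± 0.21 SE, adjusted p = 3.16e-06). Cp, ceruloplasmin, read 38214, 51510 and 43557 in DEN_WT livers, against 18596, 16674 and 19168 in WT livers (log2 fold change 1.28 ± 0.20 SE, adjusted p = 0.000504). Both were higher in every DEN_WT liver. Hamp, the hormone hepcidin that blocks iron export, read 4311, 1949 and 1686 in DEN_WT livers, against 26605, 18823 and 18040 in WT livers (log2 fold change -3.10 ± 0.35 SE, adjusted p = 4.08e-05). Lcn2, lipocalin 2, which binds bacterial siderophores, read 16278, 11421 and 14401 in DEN_WT livers, against 42, 56 and 65 in WT livers (log2 fold change 7.99 ± 0.68 SE, adjusted p = 4.44e-06), without overlap.

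Of 33 tested genes of glucose and glycogen 9 were higher and 4 lower, and the lower count was 2 after quantile normalization and 1 at equal totals or without DEN_WT 2. The share of lower genes was near the 13.5% among all tested genes. Pygb, the brain form of glycogen phosphorylase, read 1500, 2132 and 1983 in DEN_WT livers, against 90, 77 and 63 in WT livers (log2 fold change 4.59 ± 0.30 SE, adjusted p = 7.5e-07). Pygl, the liver form, read 4994, 3145 and 4298 in DEN_WT livers, against 8727, 6086 and 7138 in WT livers (log2 fold change -0.83 ± 0.23 SE, adjusted p = 0.0149). The isoforms went opposite ways without overlap, though Pygl did not pass without DEN_WT 2 (-0.64) or WT 1 (-0.69), at equal totals or after quantile normalization. G6pdx, the entry to the pentose phosphate pathway, read 526, 664 and 677 in DEN_WT livers, against 47, 96 and 60 in WT livers (log2 fold change 3.24 ± 0.33 SE, adjusted p = 1.81e-05). Hk1, a hexokinase of most other cells, read 333, 76 and 100 in DEN_WT livers, against 36, 48 and 53 in WT livers (log2 fold change 1.58 ± 0.43 SE, adjusted p = 0.0135). DEN_WT 1 was far above the other livers for Hk1. In fatty acid synthesis 9 of 26 were higher and 5 lower. Pnpla3, a lipid droplet acyltransferase and lipase, read 646, 1310 and 1536 in DEN_WT livers, against 40, 17 and 9 in WT livers (log2 fold change 5.81 ± 0.56 SE, adjusted p = 1.15e-05). Me1, malic enzyme, read 702, 537 and 657 in DEN_WT livers, against 1516, 1643 and 2194 in WT livers (log2 fold change -1.49 ± 0.35 SE, adjusted p = 0.00575). Of 16 tested lipid droplet genes 5 were higher and 7 lower. Cidea, a droplet protein of brown fat, read 37, 149 and 81 in DEN_WT livers, against 0, 4 and 0 in WT livers (log2 fold change 5.50 ± 0.76 SE, adjusted p = 0.000181). G0s2, an inhibitor of lipolysis, read 531, 258 and 240 in DEN_WT livers, against 1673, 1686 and 2931 in WT livers (log2 fold change -2.65 ± 0.62 SE, adjusted p = 0.00572). Neither overlapped.

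Several families of detoxification enzymes had more lower than higher members. Conjugating UGT and SULT genes had 16 of 25 lower and 4 higher, carboxylesterases 12 of 18 lower and 2 higher, and aldehyde and alcohol dehydrogenases 11 of 16 lower and 2 higher (6 lower at equal totals, 5 after quantile normalization). For UGT and SULT genes the share of higher genes was near the 16.1% among all tested genes. Ces1e read 1422, 702 and 1157 in DEN_WT livers, against 8536, 7848 and 7804 in WT livers (log2 fold change -2.94 ± 0.25 SE, adjusted p = 4.44e-06). Ces2e read 9047, 14375 and 14128 in DEN_WT livers, against 3751, 3827 and 4583 in WT livers (log2 fold change 1.60 ± 0.22 SE, adjusted p = 0.000185). Neither set overlapped, and reads may be split among such gene copies. Aldh1b1, a mitochondrial aldehyde dehydrogenase, read 10538, 9327 and 9203 in DEN_WT livers, against 2185, 1705 and 2237 in WT livers (log2 fold change 2.25 ± 0.16 SE, adjusted p = 1.42e-06), against the direction of its family. Glutathione and NRF2 genes had 14 of 31 lower and 2 higher, and 8 lower without DEN_WT 2, 7 at equal totals and 9 after quantile normalization. The higher count was 4 without DEN_WT 2 or after quantile normalization. Gsta3, a glutathione transferase, read 8214, 4810 and 8258 in DEN_WT livers, against 28944, 33275 and 33877 in WT livers (log2 fold change -2.21 ± 0.27 SE, adjusted p = 6.38e-05). Nr1i3, the receptor CAR that controls many of these genes, read 1374, 1008 and 1995 in DEN_WT livers, against 2285, 7578 and 7958 in WT livers (log2 fold change -1.88 ± 0.38 SE, adjusted p = 0.00247). Alas1, the first step of heme synthesis, read 8832, 3311 and 5217 in DEN_WT livers, against 45118, 54513 and 24602 in WT livers (log2 fold change -2.88 ± 0.61 SE, adjusted p = 0.00323). WT 1 was low for Nr1i3 and still above all DEN_WT livers. Of 15 tested receptor and partner genes 1 was higher and 5 lower, with 3 lower without WT 2.

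Of the genes that activate DEN or repair its damage to DNA, the P450 fell the furthest. Cyp2e1, the main P450 that activates it, read 46023, 11828 and 34714 in DEN_WT livers, against 176179, 234001 and 201620 in WT livers (log2 fold change -2.93 ± 0.44 SE, adjusted p = 0.000328). Mgmt, which removes alkyl groups from guanine in DNA, read 173, 180 and 237 in DEN_WT livers, against 314, 356 and 306 in WT livers (log2 fold change -0.73 ± 0.24 SE, adjusted p = 0.0351). Mpg, a glycosylase for alkylated bases, read 381, 566 and 462 in DEN_WT livers, against 347, 265 and 305 in WT livers (log2 fold change 0.61 ± 0.21 SE, adjusted p = 0.039). DEN_WT and WT did not overlap for any of them. Mgmt was called in full and without DEN_WT 3, but not without any of the other 5 libraries (-0.65 to -0.78), and Mpg did not pass without DEN_WT 2, DEN_WT 3, WT 2 or WT 3 (0.46 to 0.61). Of the 16 tested genes of activation and alkyl repair 1 was higher and 4 lower, and 2 were lower when any library other than DEN_WT 3 was left out.

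**Figure D3:**
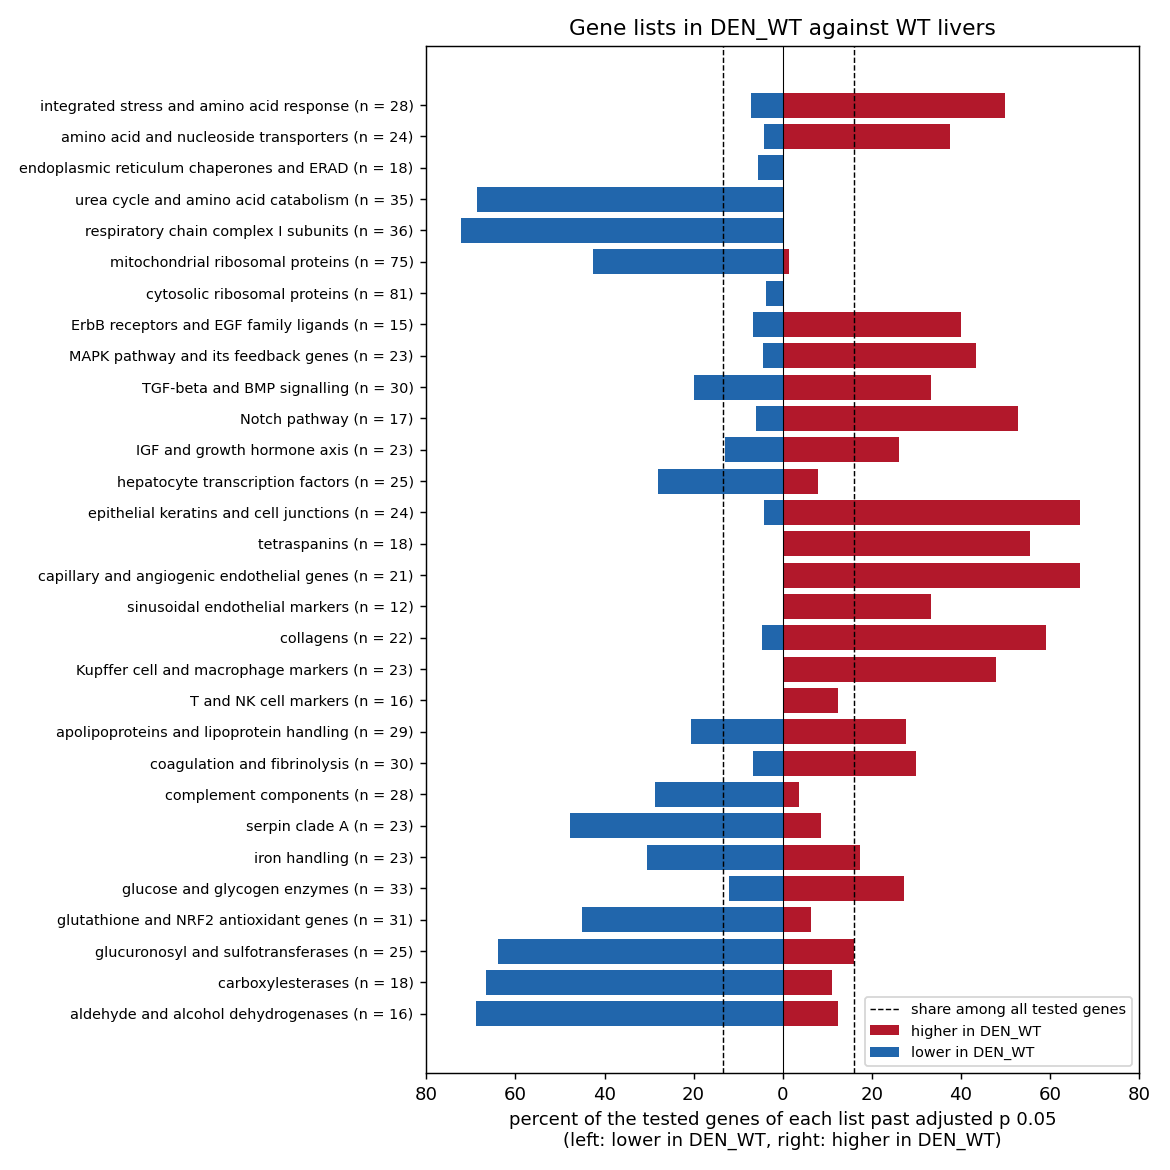
Percent of the tested genes of 30 lists that were higher (red, right) or lower (blue, left) in DEN_WT than in WT, with dashed lines at the shares among all tested genes, 16.1% and 13.5%. Complex I, amino acid catabolism and the detoxification lists reach far left, and junction, capillary and collagen lists far right.

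The treated mice differed from each other more than the untreated ones in some genes. Among 9881 genes with a mean of at least 100 in both groups, 133 spanned 4-fold or more among DEN_WT livers and 79 among WT livers, although the median SD of log2 values was 0.2 in DEN_WT and 0.232 in WT. DEN_WT 2 was the farthest from WT in 58.2% of the lower genes and 43.7% of the higher genes. Cyp17a1, a steroid 17-hydroxylase, read 1755, 34 and 118 in DEN_WT livers, against 27, 6 and 4 in WT livers (log2 fold change 4.29 ± 1.05 SE, adjusted p = 0.0077). The acute phase gene Saa2 read 5112, 104 and 612 in DEN_WT livers, against 133, 182 and 188 in WT livers, and did not pass (log2 fold change 2.05 ± 1.02 SE, adjusted p = 0.147), but passed without DEN_WT 2 (3.41). DEN_WT 1 was high for both. Ly6k, a GPI-anchored protein of the testis, read 351, 794 and 24 in DEN_WT livers, against 0, 1 and 0 in WT livers (log2 fold change 7.25 ± 1.01 SE, adjusted p = 0.000195). DEN_WT 3 was low. Ccrn4l, a clock-controlled deadenylase, read 2502, 132 and 843 in DEN_WT livers, against 1576, 1780 and 1776 in WT livers (log2 fold change -1.38 ± 0.71 SE, adjusted p = 0.164) and passed only without DEN_WT 1 (-2.35). Ly6k, with a lower mean, is not among the 10 widest-ranging genes, of which the others were Moxd1, Saa1, Serpina3c, Orm2, Mup13 and Mup7.

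C1s, a protease of the complement C1 complex, had the widest range of log2 values in DEN_WT among genes with a DEN_WT mean of at least 500. It read 11219, 13 and 18 in DEN_WT livers, against 12056, 10709 and 9877 in WT livers, so that DEN_WT 1 was at the WT level and DEN_WT 2 and 3 were nearly empty. DEN_KO and KO livers read between 6737 and 11808. Its log2 fold change was -6.24 ± 1.72 SE, adjusted p = 0.015, and leaving out DEN_WT 1 made it -9.38. Without DEN_WT 2 or DEN_WT 3 it was -4.55 or -4.77 and did not pass. The neighbouring C1ra read 5769, 1546 and 2584 in DEN_WT livers, against 8099, 8182 and 6813 in WT livers (log2 fold change -1.43 ± 0.35 SE, adjusted p = 0.00729), lowest in the same livers.

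**Figure D4:**
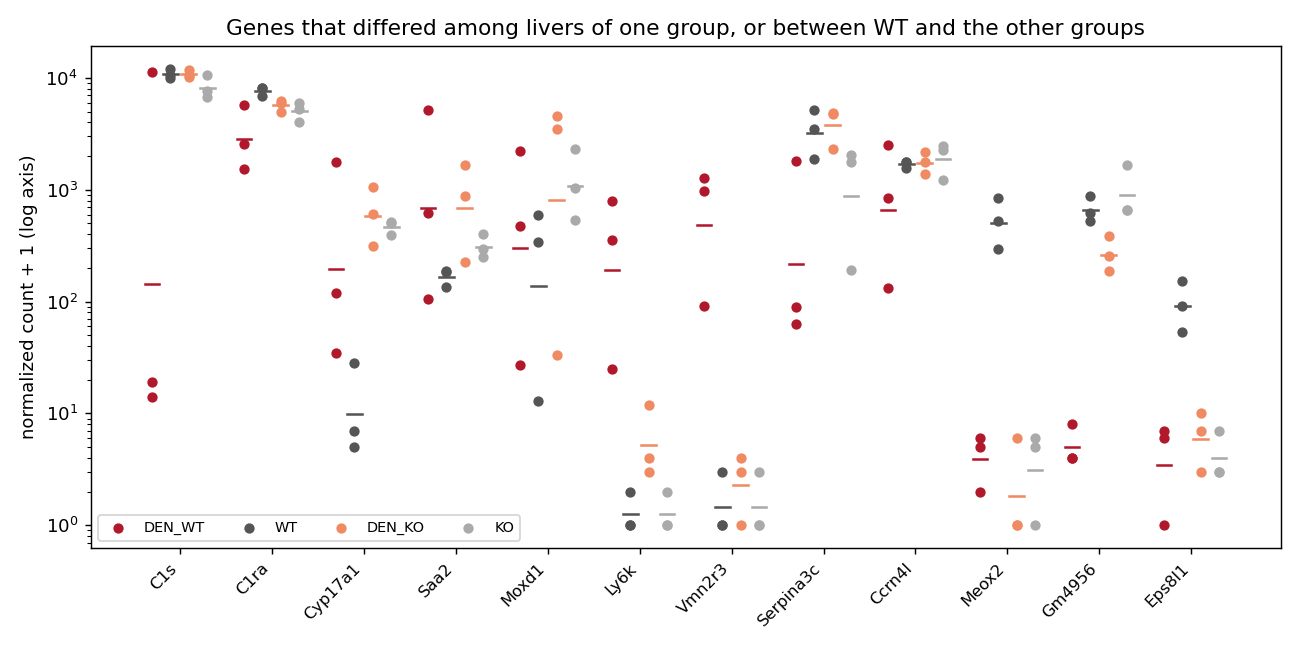
Normalized counts plus 1 (log axis) for 12 genes in each of the 12 livers, DEN_WT in red, WT in dark grey, DEN_KO in orange and KO in light grey, with the mean of the log values as a bar. The DEN_WT livers spread widely for C1s, Cyp17a1 and Ly6k, and Meox2 and Eps8l1 are high only in WT.

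The deepest falls included genes whose level in WT was itself unusual in the series. Meox2, a homeobox gene of mesoderm and vessels, read 4, 1 and 5 in DEN_WT livers, against 296, 843 and 524 in WT livers (log2 fold change -7.02 ± 0.82 SE, adjusted p = 5.33e-05). It read 5, 0 and 0 in DEN_KO and 4, 0 and 5 in KO livers, so only the untreated wild-type mice held it. Eps8l1, an actin regulator of epithelia, had the same layout with 5, 0 and 6 in DEN_WT livers, against 53, 91 and 153 in WT livers, beside 2, 9 and 6 in DEN_KO and 6, 2 and 2 in KO livers (log2 fold change -4.72 ± 0.75 SE, adjusted p = 0.000497). Gm4956 differed from both, with 3, 3 and 7 in DEN_WT livers, against 528, 881 and 619 in WT livers, beside 254, 186 and 381 in DEN_KO and 652, 653 and 1673 in KO livers (log2 fold change -7.04 ± 0.40 SE, adjusted p = 2.71e-07). These 3 were the only genes, by a rule chosen after the values were seen, to read at most 10 in every DEN_WT and at least 50 in every WT liver. Eps8l1 has a WT mean below 100, and C1s (-6.24 on the log2 scale) had overlapping groups. The 20 largest falls were taken among lower genes whose WT mean was at least 100 and whose groups did not overlap. Besides Meox2 and Gm4956 these were Cyp2b10, Serpina4-ps1, Lcn13, Serpina3c, Selenbp2, Lrtm1, Gm16002, Gm13773, Adh6-ps1 and 9 genes named Mup. Gm16002 and Gm13773 lie among the Mup genes on chromosome 4. Selenbp2, a selenium-binding protein, read 12180, 1213 and 1554 in DEN_WT livers, against 36373, 48120 and 43440 in WT livers (log2 fold change -3.90 ± 0.68 SE, adjusted p = 0.000918).

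Chromatin of DEN-treated wild-type livers, precipitated for H3K4me3, the mark of active starts, or for the methyltransferase Smyd3, gave the authors' region lists on build mm9, 1 list per group, with 15579 H3K4me3 regions and 27324 Smyd3 peaks. A region lay within 2000 bases of the start for H3K4me3 in 77.0% of higher genes, 75.3% of lower genes and 69.6% of genes that did not pass. For Smyd3 the shares were 68.9% of higher, 60.9% of lower and 65.9% of genes that did not pass. Their 95% Wilson intervals, which cover counting error only, were 67.1% to 70.6%, 58.8% to 62.9% and 65.0% to 66.7%. Among genes with a mean of at least 100 the H3K4me3 shares were 88.0% of higher, 81.0% of lower and 85.9% of genes that did not pass, and the Smyd3 shares were 75.4%, 64.8% and 78.1% in the same order. The order of lower genes and genes that did not pass thus turned for H3K4me3, and that of higher genes and genes that did not pass turned for Smyd3.

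Shares fell toward both ends of the response. Genes that fell by 2 to 4 on the log2 scale had H3K4me3 in 42.0% and Smyd3 in 26.0% (262 genes), genes within 0.5 either way 77.2% and 71.8% (8492 genes), and genes that rose by 4 or more 63.4% and 50.8% (191 genes). The median mean level in these classes was 52.2 in DEN_WT and 278 in WT for the falls, 338 in DEN_WT and 346 in WT for the middle, and 232 in DEN_WT and 5.0 in WT for the rises, and its part in the shares was not tested. Of the 20 largest rises 14 had an H3K4me3 region and 4 a Smyd3 peak, at Gldn, Igfbp1, Alox5 and Igdcc4. Among all higher genes the shares were 77.0% for H3K4me3 and 68.9% for Smyd3, and among genes that did not pass 69.6% and 65.9%. Of the 20 largest falls 9 had H3K4me3 and 0 a Smyd3 peak, beside 75.3% and 60.9% of all lower genes. Those falls include 9 Mup genes, Gm16002 and Gm13773, which lie close together on chromosome 4, so the 20 are not separate loci. Whether ChIP reads could be placed among such copies was not tested. Regions of untreated livers were not used here, so these shares describe treated livers and hold no change.

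**Figure D5:**
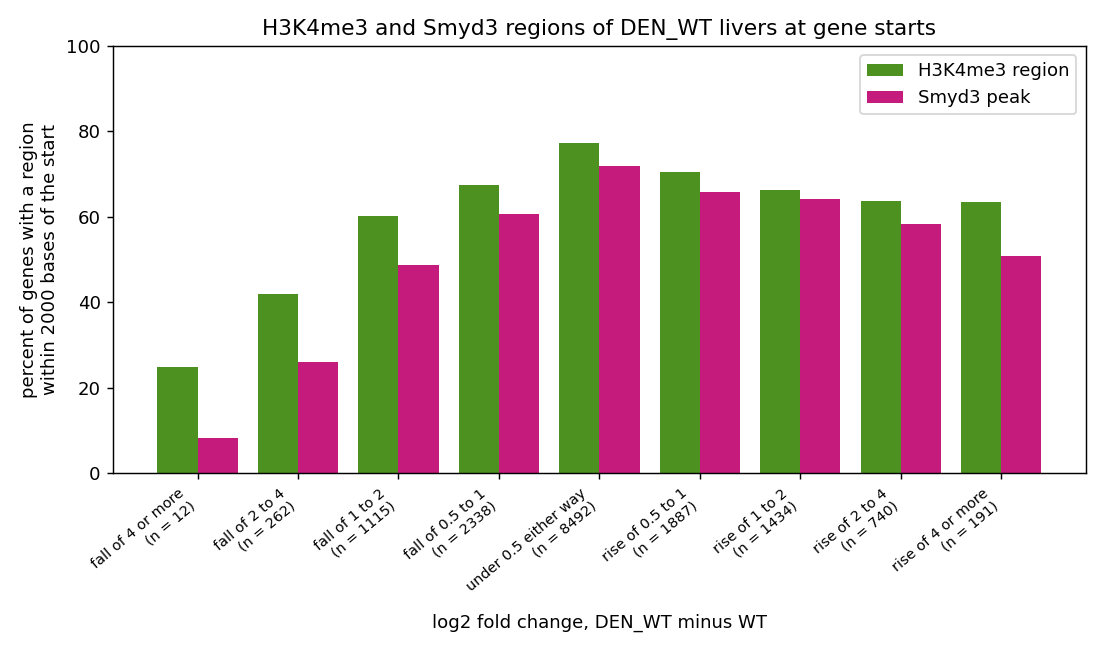
Percent of genes with an H3K4me3 region (green) or a Smyd3 peak (pink) of DEN_WT livers within 2000 bases of the gene start, by log2 fold change of DEN_WT minus WT, with the number of genes under each class. Both shares are highest among genes that moved by less than 0.5 and lowest among genes that fell by 4 or more.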

How the data were processed

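Liver RNA from 12 mice was measured by sequencing. The authors' deposited table holds normalized counts, treated as a score because they are scaled and rounded to whole numbers, so no count model was fitted. Per the submitters' processing notes the tools were cutadapt, TopHat2 2.0.9, Bowtie2, Cufflinks and DESeq, with build mm9. The GC fraction in the deposited table is the authors' and was not used. Raw read depth is not given in the sources used here. Genes with a value of 10 in at least 3 of 12 libraries were tested as log2(value + 1) in R 4.3.3 with limma 3.58.1 (4 groups, 8 residual degrees of freedom, trended variance, 2-sided, Benjamini-Hochberg threshold 0.05 over 16471 genes). Fold changes are on that scale, which understates low genes. Each SE is limma's moderated one, which combines a gene's own spread with that of genes of similar level. With 3 livers against 3, an exact permutation test cannot go below 0.1. The fit was tested on simulated data in which few genes changed, far fewer than were called here. That simulation did not model scaling between libraries, so it does not bear on how the results depend on scaling. Genes, lists and comparisons were chosen with earlier results of these data known. Named were the 20 largest rises and falls among genes that passed, did not overlap and had a mean of at least 100 in the higher group. Also named were the 10 lowest adjusted p-values, the 10 widest ranges in DEN_WT, the 10 highest genes per group and Smyd3. Each list gave up to 6 members by adjusted p, plus central members. Alternatives varied pseudocount, filter, scaling, samples, weights and block. Promoter windows are RefSeq's, matched by symbol. Some genes that the rule would name are not reported here.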

Additional observations from a re-analysis of the deposited data

Results flagged for a closer look

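The effect of DEN was tested for a difference between genotypes with the interaction term of limma's fit (the DEN effect in livers carrying the Smyd3 gene trap minus that in wild-type livers). It passed for 2727 genes, 16.6% of those tested. Among the 20 largest rises of the wild-type comparison it passed for 16, and among the 20 largest falls for 13. Those genes were picked by the same DEN_WT and WT values that enter the interaction term. Such a choice favours an interaction of opposite sign. These counts therefore cannot be set against the 16.6%, and whether the largest DEN effects depend more on genotype was not tested.

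Phgdh rose in DEN_WT livers, and its interaction was -4.65 on the log2 scale, so the rise was smaller in gene trap livers. For the 3 genes that nearly vanished in DEN_WT livers the interaction was 6.25 for Meox2, 5.27 for Gm4956 and 5.30 for Eps8l1, on the log2 scale. Meox2 and Eps8l1 were near 0 in DEN_KO and KO livers alike. Gm4956 kept values from 186 to 381 in DEN_KO livers. Meox2, Gm4956 and Eps8l1 were also picked by their DEN_WT and WT values, so the same limit holds for their interactions.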

How the results depend on the processing

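Of 133 genes given with a log2 fold change, 117 passed, and 109 of these passed under every alternative that tested them and without each library. No direction reversed where a gene passed in the main fit or in the alternative. Changes of sign in genes that passed in neither were not counted. Leaving out 1 library gave 2157 to 2365 higher genes, 1611 to 2033 lower genes and 1917 to 2621 genes with an interaction. Under equal totals 1220 genes were lower, and array weights gave 4621 interactions. Replicate numbers do not pair the mice: deviations of same-numbered livers correlated at -0.057, 0.005 and -0.0607, and the replicate block gave 2527 higher and 2075 lower genes and 1 higher T and NK cell gene.

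Counts of lower genes at equal totals were 6 for aldehyde and alcohol dehydrogenases, 0 for cytosolic ribosomal proteins, 7 for glutathione genes, 4 for hepatocyte transcription factors, 4 for iron handling, 10 for mitochondrial ribosomal proteins, 2 for nitrosamine genes, 17 for complex I and 15 for amino acid catabolism. After quantile normalization they were 5 for dehydrogenases, 0 for endoplasmic reticulum chaperones, 9 for glutathione genes, 1 for hepatocyte markers, 14 for amino acid catabolism and 3 for xenobiotic receptors, while 15 coagulation genes, 1 T and NK cell gene and 0 neutrophil genes were higher. The 6 wild-type libraries alone gave 1 higher T and NK cell gene and 0 higher neutrophil genes. Without a filter 1 T and NK cell gene and 0 neutrophil genes were higher and 2 nitrosamine genes lower. A filter of 50 left 1 higher B cell gene, 1 T and NK cell gene, 0 neutrophil genes and 0 pancreatic genes. Cytosolic ribosomal proteins had 1 lower gene without the variance trend and 8 with array weights. Leaving out 1 library gave 1 to 2 B cell genes, 4 to 7 Hippo genes, 1 to 2 T and NK cell genes, 0 to 2 neutrophil genes (higher), and 0 to 5 cytosolic ribosomal, 8 to 14 glutathione, 2 to 4 nitrosamine, 6 to 11 serpin and 3 to 6 xenobiotic receptor genes (lower). The cause of these shifts was not tested.

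With a window of 5000 bases, H3K4me3 stood at 79.5% of higher, 77.2% of lower and 72.2% of other genes and Smyd3 at 72.3%, 64.3% and 69.0%. With 1000 bases the shares of genes that did not pass were 68.6% and 64.3%. Among genes with a mean of at least 100, H3K4me3 stood at 88.0%, 81.0% and 85.9% and Smyd3 at 75.4%, 64.8% and 78.1%.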
